A study of Mus musculus with 4 samples.

Results

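The cells described here are monocytes of B16 melanoma tumors that carried *Vcan* and *Chil3* mRNA, in the ZsGreen (ZsG)-negative and the ZsG-positive gate. They were selected on measured values: at least 5 UMIs of *Vcan* and *Chil3* together, at least 5 of *Lyz2*, fewer than 10 of *C1qa*, *C1qb* and *C1qc*, fewer than 3 of *Ace*, *Adgre4* and *Treml4*, fewer than 3 of *Hilpda*, *Egln3*, *Vegfa*, *Nos2* and *Inhba*, and at most 1 of *Cd3d*, *Cd3e* and *Cd3g*. A UMI (unique molecular identifier) stands for 1 captured mRNA molecule. In all, 530 of 8822 kept CD45+ cells met these limits, 108 from the ZsG-negative and 422 from the ZsG-positive library. The files held 10605 barcodes, and cells were kept if they showed from 1000 to below 6000 genes and if mitochondrial genes took less than 10% of their UMIs.

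B16ZsG is a clone of the B16-F10 melanoma line, grown from a single cell, that makes the cytoplasmic fluorescent protein ZsG under the control of doxycycline. It was injected subcutaneously into wild-type C57BL/6 mice, doxycycline was given in the drinking water, and tumors were taken on day 8. CD45+ tumor-infiltrating leukocytes (TILs) were then sorted by ZsG fluorescence, and each gate gave 1 10x 3′ library. The ZsG-positive gate took bright cells, so the ZsG-negative gate could also hold cells with dimmer ZsG, as the study states of most ZsG-positive lymphocytes. All groups share the host strain, the tumor clone and the doxycycline, and the age of the mice was not given in the sources used here. With 1 library per gate there is no replicate, no test could be made, and every interval below covers counting error only.

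Inflammatory, or classical, monocytes leave the bone marrow through the receptor *Ccr2*, carry the surface protein Ly6C, and enter inflamed tissue and tumors. There they can become macrophages, which take up debris and make complement C1q, or cells with dendritic features, which display peptides on MHC class II. Non-classical monocytes are a second blood subset, low in Ly6C and high in *Cx3cr1*, that patrols the vessel wall.

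These monocytes made up 2.30% of kept ZsG-negative cells (95% exact binomial interval 1.89 to 2.77) and 10.2% of kept ZsG-positive cells (9.33 to 11.2), a log2 ratio of 2.15 (1.85 to 2.47). The shares depend on the sort, since NK and T cells took 72.7% of kept cells in the ZsG-negative library and 5.26% in the other. The median monocyte had 8394 UMIs and 2498 genes in the ZsG-negative and 6836.5 UMIs and 2181.5 genes in the ZsG-positive library. Within the limits, the summed *Vcan* and *Chil3* UMIs had a median of 24 (5 to 142) in ZsG-negative and of 13 (5 to 93) in ZsG-positive monocytes. Those of *Lyz2*, the lysozyme of myeloid cells, had a median of 241 and 111. C1q UMIs were at 0 in 94.4% of ZsG-negative and in 31.3% of ZsG-positive monocytes, where their mean was 1.59 per cell.

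The limits cut through a continuum in the ZsG-positive library. There, 63 monocytes had 5 or 6 *Vcan* and *Chil3* UMIs, and 107 cells that met every other limit had 3 or 4. Their summed *H2-Aa*, *H2-Ab1* and *H2-Eb1* level was 10345 CPM (counts scaled to 1000000 UMIs) just inside and 11358 CPM just outside. At the C1q limit, 9 ZsG-positive cells had 8 or 9 UMIs and 8 had 10 or 11. The C1q limit alone removed 226 ZsG-positive cells and 1 ZsG-negative cell, and the limit on *Hilpda*, *Egln3*, *Vegfa*, *Nos2* and *Inhba* alone removed 140 and 5.

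The marker genes bore out the monocyte label. *Vcan*, which encodes the matrix proteoglycan versican, measured 311 CPM (277 to 348) in the ZsG-negative gate and 449 CPM (427 to 472) in ZsG-positive monocytes, against 59.6 in ZsG-positive C1q macrophages (cells with at least 10 C1q UMIs). *Chil3*, a secreted chitinase-like protein, was at 3276 CPM (3162 to 3392) and 1705 CPM, against 150.3 in the macrophages. Both chose the cells, so their levels are no finding. *Ly6c2*, one of the genes of the Ly6C protein, stood at 1285 CPM in ZsG-negative and 1750.0 CPM in ZsG-positive monocytes, and *Ccr2* at 1285 and 1050.0. ZsG-negative non-classical monocytes, which are cells with at least 3 UMIs of *Ace*, *Adgre4* and *Treml4*, were lower in both genes, at 605 CPM for *Ly6c2* and 474 for *Ccr2*.

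The other markers differed between the gates. *Ifitm6*, an interferon-induced transmembrane protein of myeloid cells, measured 792 CPM (737 to 850.5) in the ZsG-negative gate and 303 CPM (284 to 322) in ZsG-positive monocytes, a log2 ratio of -1.39 (-1.53 to -1.25). *Dmkn*, which encodes dermokine, was low in both gates, at 53.2 CPM (39.6 to 70.0) and 81.6 CPM (72.3 to 91.9), and 6.75 in the macrophages. *Cxcl10*, a chemokine that draws T cells, was at 6231 CPM (6074 to 6391) and 3842 CPM (3776 to 3908), and non-classical monocytes held 5294, so that it did not set the monocyte subsets apart. After each cell had been thinned to 3000 UMIs, which left out 1 ZsG-positive cell, a *Cxcl10* UMI was found in 92.6% of ZsG-negative and 85.5% of ZsG-positive monocytes, and in 10.4% and 20.1% of NK and T cells of the same libraries. *Dmkn* was then found in 9.26% and 16.4%, and in at most 0.529% of NK and T cells.

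**Figure D1:**
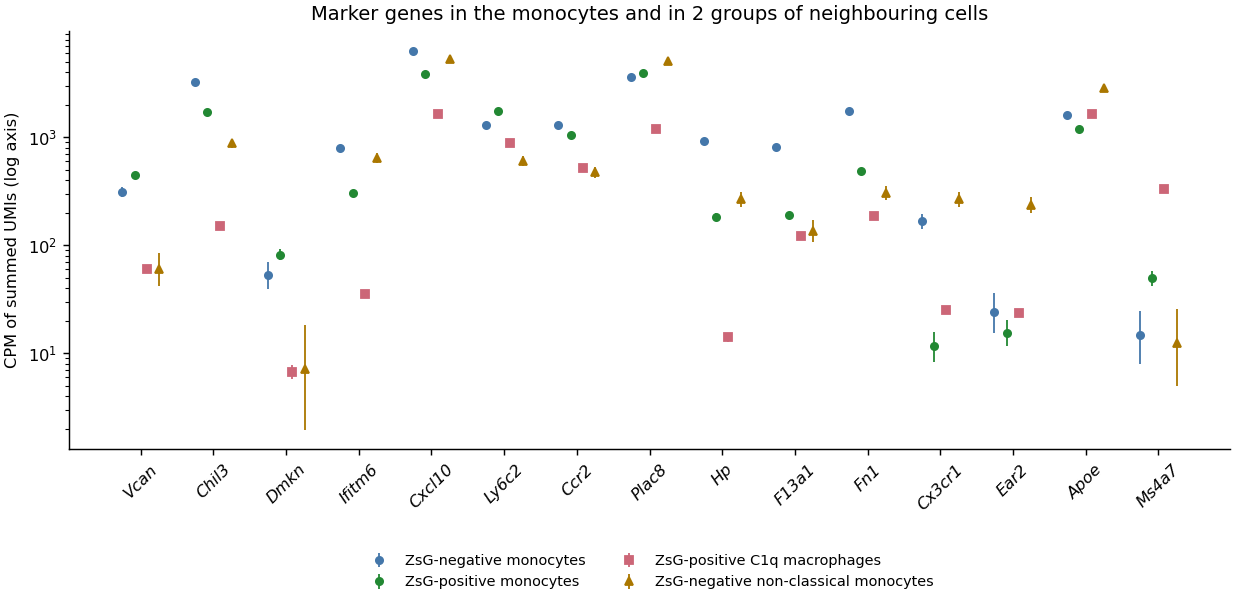
Levels of 15 marker genes as CPM of summed UMIs on a log axis, with exact Poisson 95% intervals (counting error only), in ZsG-negative (108) and ZsG-positive (422) monocytes, ZsG-positive C1q macrophages (1814 cells) and ZsG-negative non-classical monocytes (72 cells). *Vcan*, *Chil3* and *Dmkn* stand above the macrophages in both gates, while *Hp*, *F13a1*, *Fn1* and *Cx3cr1* stand lower in the ZsG-positive gate, from 926 to 182 CPM for *Hp*.

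Markers of other cells were few. Of 12 neutrophil genes, 8 were at 0 in ZsG-negative and 7 in ZsG-positive monocytes, and the list summed to 91.8 and 49.3 CPM. The 14 NK and T cell genes summed to 333 CPM (297 to 372) in ZsG-negative and 46.6 CPM (39.6 to 54.5) in ZsG-positive monocytes, and to 9983 and 7338 in NK and T cells themselves. The 11 melanocyte genes gave 4 UMIs in ZsG-negative monocytes, 4.17 CPM (1.14 to 10.7), with 8 genes at 0. They gave 37 UMIs in ZsG-positive monocytes, 10.98 CPM (7.73 to 15.1), with 3 genes at 0, against 32.8 CPM (30.7 to 35.01) in C1q macrophages and 15.1 CPM in NK and T cells of the same library. The log2 ratio between the gates' monocytes was 1.40 (-0.08 to 3.35), so a difference in tumor mRNA was not detectable at this depth. The libraries shared 6 barcode sequences, 1 of them a monocyte. No doublets were removed.

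To ask how monocytes bright in tumor-derived ZsG differed from those with less or none, UMIs were summed over the cells of each gate and compared gene by gene. A gene was called if it had at least 20 UMIs over both groups, a ratio of at least 2-fold and a 95% interval of the ratio that left out 1. Of 8243 genes, 631 (7.65%) were called higher and 705 (8.55%) lower in ZsG-positive monocytes, with a median log2 ratio of -0.04, and the genes of the rule were left out. Counts for the gene lists are read against these shares. Some genes belong to several lists, so the counts are not separate results. Examples are *Mrc1*, *Mertk* and *Axl* (macrophage and scavenger receptor) and *Cxcl9* and *Cxcl10* (chemokine and interferon gamma). NK and T cells of the same library serve as a measure of free RNA, since each droplet holds some mRNA from outside its cell.

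MHC class II genes were the clearest group. Of 9 genes tested, 8 were called higher in ZsG-positive monocytes and none lower, with a median log2 ratio of 2.74. *Cd74*, the invariant chain that escorts class II molecules, was at 936 CPM (876 to 999) in the ZsG-negative and 6264 CPM (6179.5 to 6349) in the ZsG-positive gate, a log2 ratio of 2.74 (2.65 to 2.84). *H2-Eb1*, the beta chain of I-E (ENSMUSG00000060586, GRCm38 chromosome 17, 34305867 to 34316674), stood at 76.2 CPM (59.7 to 95.8) and 1703 CPM (1659 to 1747), and its log2 ratio was 4.48 (4.15 to 4.84). *H2-Aa* (ENSMUSG00000036594, chromosome 17, 34282744 to 34287823) and *H2-Ab1* (ENSMUSG00000073421, chromosome 17, 34257689 to 34269419), the chains of I-A, had log2 ratios of 3.52 (3.33 to 3.73) and 3.51 (3.31 to 3.71). The peptide editors *H2-DMa* and *H2-DMb1* had 1.64 (1.45 to 1.84) and 2.34 (2.08 to 2.62). *Ciita*, the coactivator that class II transcription needs, was at 27.1 CPM (17.7 to 39.8) and 117 CPM (106 to 129), a log2 ratio of 2.11 (1.54 to 2.74). The exception was *H2-Oa*, at 7.30 and 5.34 CPM.

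At 3000 UMIs per cell, *H2-Ab1* was found in 11.1% of ZsG-negative monocytes, 72.2% of ZsG-positive monocytes and 96.6% of ZsG-positive macrophages. Per cell, *H2-Ab1* had 2.03 and 20.7 UMIs in the monocytes of the gates, against 0.359 and 1.65 in NK and T cells of the same libraries. In cells of 4000 to 12000 UMIs, 8 of 8 class II genes were called higher, and with fewer than 5 C1q UMIs 8 of 9. Among genes whose level in NK and T cells was under 20% of that in monocytes, 8 of 8 were. That limit takes each gene in the library where it is higher, so called genes pass it more readily. The count under it is thus no support for the difference.

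Genes of this pathway share promoter letters, of which the Y box was searched. This CCAAT-type element is bound by NF-Y and was spelled CTGATTGG, on both strands, in the 250 bases before the RefSeq start (GRCm38.p6). It was found in 3 of 6 class II genes with a promoter in the table, *H2-Aa*, *H2-Eb1* and *H2-Oa*, and in 4.43% of 27025 genes. *H2-Oa*, which has the letters, was not called, so that a match and a call did not go together in each gene. The 150 bases before the start of the chains with the match are shown, since these genes moved together, with the Y box in capitals.
H2-Eb1 (chr17:34305717-34305866, plus strand): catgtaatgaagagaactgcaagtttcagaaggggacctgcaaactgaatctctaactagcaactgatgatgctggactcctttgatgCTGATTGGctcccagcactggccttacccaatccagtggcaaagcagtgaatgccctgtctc
H2-Aa (chr17:34287824-34287973, minus strand): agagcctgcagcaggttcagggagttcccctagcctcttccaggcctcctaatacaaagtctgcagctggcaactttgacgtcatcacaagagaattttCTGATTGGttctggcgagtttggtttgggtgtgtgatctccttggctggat

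MHC class I genes, made by most cells, differed less: 4 of 12 were called higher and the median log2 ratio was 0.71, with 2 of 12 called at 10 or more *Vcan* and *Chil3* UMIs. *B2m*, the shared light chain, was at 2088 CPM in ZsG-negative and 2856 CPM in ZsG-positive monocytes, a log2 ratio of 0.45 (0.38 to 0.52). *H2-D1* had 0.25 (0.18 to 0.32) and *H2-K1* 0.63 (0.53 to 0.72). NK and T cells held 19.4 and 16.2 *B2m* UMIs per cell.

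Many low macrophage genes were higher in the ZsG-positive gate although C1q-high cells had been left out. Of 19 tested, 12 were called higher and none lower, and the median log2 ratio was 2.83, or 2.43 with the 4 genes at 0 in the ZsG-negative gate set to a floor of 3 UMIs. The summed level of the list differed far less, at 2527.5 CPM in ZsG-negative and 3216 CPM in ZsG-positive monocytes, a log2 ratio of 0.35 (0.28 to 0.41), and at 3000 UMIs a cell had a median of 6 and 8 of its UMIs. *Apoe*, its most abundant gene, was at 1613 and 1192 CPM. Under the limit on free RNA, 7 of 12 were called higher, beside 182 of 1026 over all genes. Called genes pass that limit more readily, so this count is no support either. *Ccl8*, a monocyte-attracting chemokine (ENSMUSG00000009185, chromosome 11, 82115185 to 82116799), had 0 UMIs in ZsG-negative monocytes, which allows up to 3, and 442 in ZsG-positive monocytes, at 131 CPM (119 to 144), at least 41.9-fold higher against that floor of 3 UMIs over the group. *Spp1*, the secreted protein osteopontin, was at 4.17 CPM (1.14 to 10.7) and 179.9 CPM (166 to 195), but NK and T cells of the ZsG-positive library held 1.74 *Spp1* UMIs per cell, more than its monocytes with 1.44. *Cd63*, a tetraspanin of late endosomes, was at 3.13 CPM (0.646 to 9.15) and 97.1 CPM (86.8 to 108). *Maf*, a transcription factor of resident macrophages, had a log2 ratio of 1.76 (1.47 to 2.05). *Apoe*, *Selenop* and *Adgre1*, which encodes F4/80, were not called, at -0.44 (-0.52 to -0.35), -0.71 (-0.95 to -0.47) and 0.16 (-0.17 to 0.50).

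C1q chose the cells, so its level is no finding. *C1qa* was at 0.40 UMIs per ZsG-positive monocyte, where the rule capped C1q. It was at 0.59 per NK or T cell of that library, which had no such limit. Among 9 scavenger and efferocytosis receptors tested, 7 were called higher and none lower, with a median of 3.54, or 1.46 with *Mertk*, at 0 UMIs in the ZsG-negative gate, set to the floor. The phagocytic receptors *Axl*, at 4.17 CPM (1.14 to 10.7) in ZsG-negative and 62.6 CPM (54.5 to 71.7) in ZsG-positive monocytes, and *Mrc1*, the mannose receptor, at 4.17 CPM (1.14 to 10.7) and 71.8 CPM (63.1 to 81.5), were low in both gates. *Msr1*, a receptor for modified lipoproteins, went from 131 CPM (109.5 to 157) to 345 CPM (325 to 365). *Dab2*, an endocytic adaptor, had 1 UMI among ZsG-negative monocytes and 496 among ZsG-positive ones, a log2 ratio of 7.14 (4.66 to 12.45). At 3000 UMIs, *Dab2* was found in 0 of 108 ZsG-negative monocytes and in 21.4% of ZsG-positive ones.

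**Figure D2:**
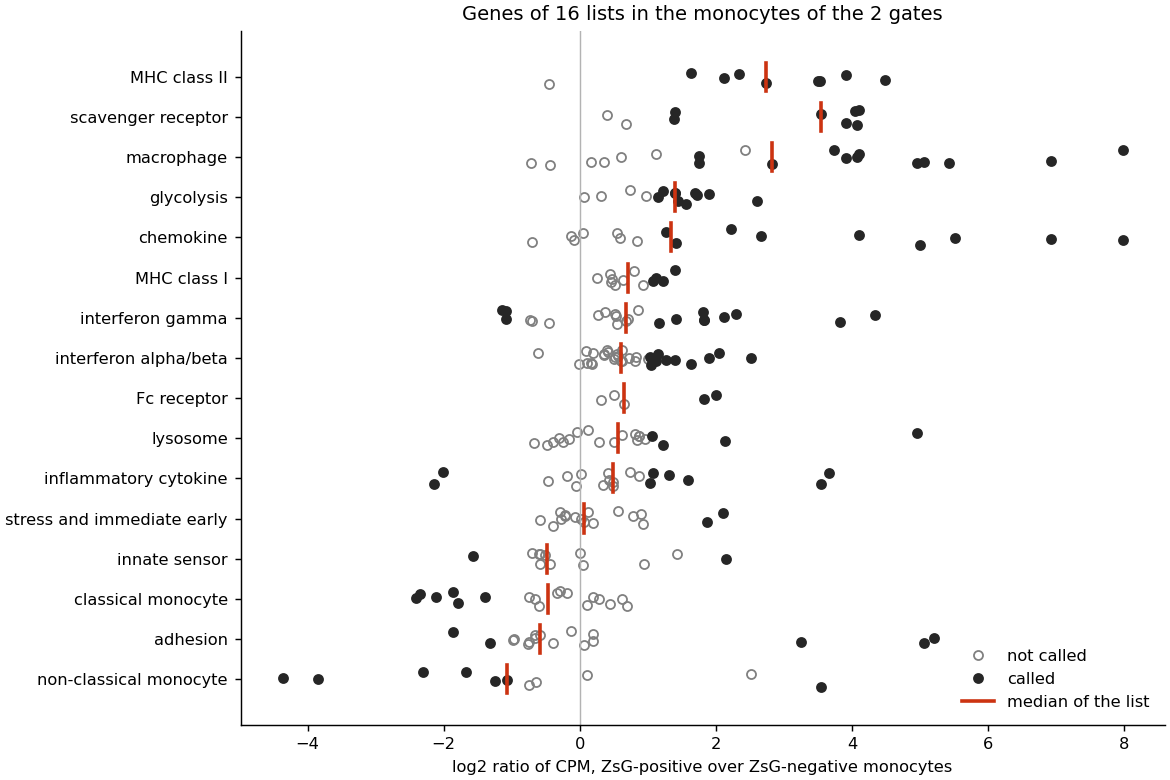
Each point is a gene of 16 lists, placed by its log2 ratio of CPM in ZsG-positive over ZsG-negative monocytes; filled points are called genes, open points are not, and red bars mark the list medians, from 3.54 for scavenger receptors to -1.07 for non-classical monocyte genes. Genes with 0 UMIs in a gate are drawn with 0.5 added to each sum, and those values are no bounds.

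Chemokines leaned to the ZsG-positive gate. Of 16 tested, 9 were called higher in ZsG-positive monocytes and none lower, with a median of 1.34. The ligands of *Ccr2* stood out: *Ccl2* measured 595 CPM (547 to 646) in the ZsG-negative gate and 2762 CPM (2706 to 2818) in ZsG-positive monocytes, *Ccl7* at 66.8 CPM (51.4 to 85.3) and 1149 CPM (1113 to 1186), and *Ccl12* at 17.7 CPM (10.3 to 28.4) and 569 CPM (544 to 595). Their log2 ratios were 2.22 (2.09 to 2.34), 4.10 (3.75 to 4.48) and 5.00 (4.32 to 5.79). *Cxcl9*, like *Cxcl10* a ligand of CXCR3 on T cells, had 1.42 (1.31 to 1.53), where *Cxcl10* had -0.70 (-0.74 to -0.65). The neutrophil attractant *Cxcl2* was at 1998 CPM and 3020.3 CPM, and *Ccl6* at 1103 CPM and 1611 CPM, neither of them called. Among receptors, *Ccr2* had -0.29 (-0.38 to -0.20), and *Ccr1* was at 281 CPM and 378 CPM.

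Interferon genes were high in both gates. Of 32 genes of the type I interferon response, 10 were called higher in ZsG-positive monocytes and none lower, and their median was 0.61. The count was the same in cells of 4000 to 12000 UMIs. *Isg15*, a ubiquitin-like protein, measured 793 CPM (738 to 852) in the ZsG-negative gate and 2092 CPM (2043 to 2141) in ZsG-positive monocytes, a log2 ratio of 1.40 (1.29 to 1.51). The sensors *Zbp1*, of left-handed nucleic acid, and *Ifi204*, of DNA, had 1.05 (0.89 to 1.21) and 0.19 (0.07 to 0.31). *Bst2*, which tethers budding virus, had 1.11 (0.92 to 1.31), and *Slfn5* had -0.62 (-0.73 to -0.51). *Ifit3*, added here for its promoter after its values were seen, was at 136 CPM (113 to 161) and 179.9 CPM (166 to 195).

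The interferon gamma genes split, with 9 of 23 called higher and 3 lower, a median of 0.68. *Gbp2*, a guanylate-binding protein, went from 542 CPM (496 to 590.3) to 1903 CPM (1857 to 1950.3) and *Psmb8*, an immunoproteasome subunit, from 651 CPM to 1454 CPM. *Ly6a*, the surface protein Sca-1, stood at 56.4 CPM (42.3 to 73.5) and 1136 CPM (1100.4 to 1173), a log2 ratio of 4.33 (3.95 to 4.75), beside 3.60 and 6.08 UMIs per NK or T cell. Lower were *Irf1*, the transcription factor, at 1431 CPM (1356 to 1509) and 672 CPM (644 to 700.1), and, named after their values were seen, the signal inhibitor *Socs1* and the GTPase *Irgm2*. In cells of 4000 to 12000 UMIs, 1 of the list was called lower and 9 higher.

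The core of the interferon-stimulated response element (ISRE), spelled GAAA, any 2 bases and GAAA again, lay in the 250 bases before the start of 12 of 26 matched type I genes and 12 of 20 matched interferon gamma genes, on either strand, against 3.46% of 27025 genes. *Cxcl10* was the only 1 of 12 matched chemokines with it, and its window also held the letters of the Y box, while 0 of 12 matched classical monocyte genes had the core. Promoters are shown of a marker that was lower and of response genes that were higher or not called in ZsG-positive monocytes, with the ISRE core in capitals, which reads TTTC, 2 bases and TTTC where it lies on the other strand.
Cxcl10 (chr5:92348890-92349139, minus strand): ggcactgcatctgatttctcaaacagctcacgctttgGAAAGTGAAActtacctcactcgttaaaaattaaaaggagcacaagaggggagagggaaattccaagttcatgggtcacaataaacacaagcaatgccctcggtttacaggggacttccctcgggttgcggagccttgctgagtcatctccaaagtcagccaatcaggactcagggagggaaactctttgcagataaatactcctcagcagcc
Isg15 (chr4:156200819-156200968, minus strand): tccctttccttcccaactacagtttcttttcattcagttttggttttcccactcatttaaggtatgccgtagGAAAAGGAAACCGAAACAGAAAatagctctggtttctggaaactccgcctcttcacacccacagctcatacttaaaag
Gbp2 (chr3:142620513-142620662, plus strand): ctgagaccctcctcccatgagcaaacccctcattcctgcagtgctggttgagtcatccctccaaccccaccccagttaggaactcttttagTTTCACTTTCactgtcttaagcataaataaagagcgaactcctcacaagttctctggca
Ifit3 (chr19:34583369-34583528, plus strand): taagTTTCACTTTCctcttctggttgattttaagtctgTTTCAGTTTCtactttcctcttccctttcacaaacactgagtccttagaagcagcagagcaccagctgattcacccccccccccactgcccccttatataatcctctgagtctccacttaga

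*Isg15* held 3 overlapping matches. Of these genes, *Isg15* and *Gbp2* were called and *Ifit3* and *Cxcl10* were not, at ratios that ran from -0.70 to 1.81 on the log2 scale. The letters of an NF-kB element, GGGA, any base and TTTCC, searched on both strands, were in 0.414% of all genes and in 3 of 12 matched chemokines, *Cxcl1*, *Cxcl2* and *Cxcl3*.

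**Figure D3:**
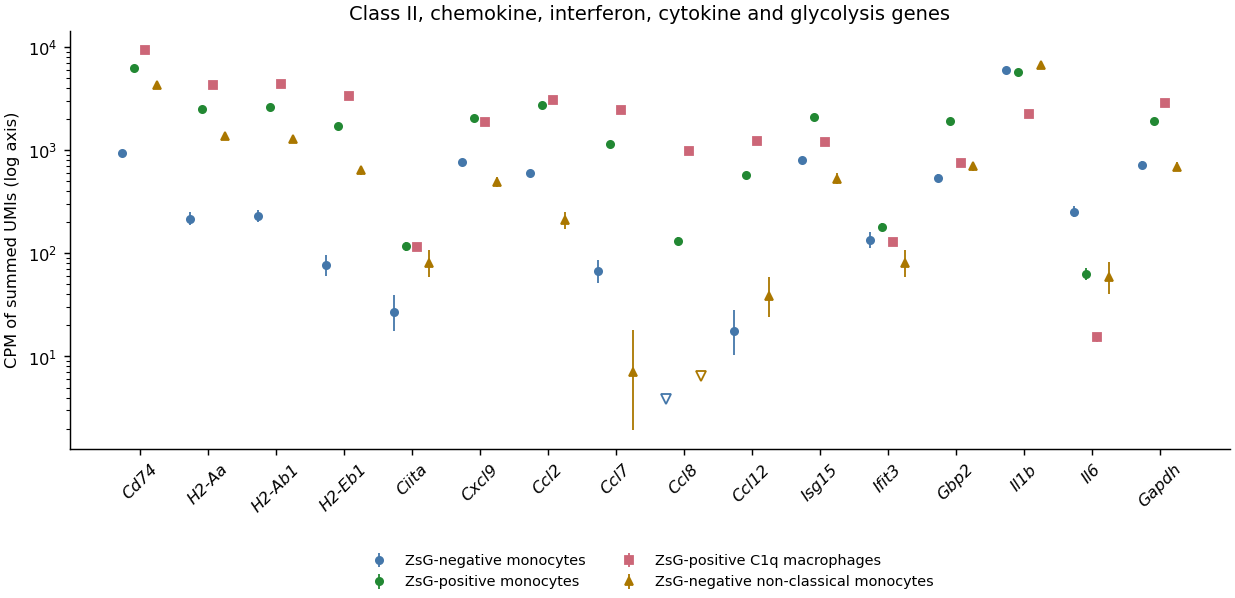
Levels of 16 class II, chemokine, interferon, cytokine and glycolysis genes as CPM of summed UMIs (log axis, exact Poisson 95% intervals) in the same groups of cells. Open triangles give the upper bound for genes at 0, such as *Ccl8* in ZsG-negative cells. ZsG-positive monocytes lie between ZsG-negative monocytes and C1q macrophages for *Cd74* (936, 6264 and 9247 CPM), *Ccl7* and *Ccl12*, and above both for *Isg15* and *Gbp2*.

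Inflammatory cytokine genes had no common direction, with 6 of 19 called higher and 2 lower. *Il1b* was among the most abundant mRNAs and hardly differed, at 6014 CPM (5859.8 to 6171) in ZsG-negative and 5774 CPM (5693 to 5856) in ZsG-positive monocytes. *Tnf* was at 432 CPM (391 to 476) and 907 CPM (875 to 939), a log2 ratio of 1.07 (0.92 to 1.22). *Il6*, named after its values were seen, went the other way, from 254 CPM (223 to 288) to 62.9 CPM (54.7 to 72.0), a log2 ratio of -2.01 (-2.28 to -1.74), with at most 0.00234 UMIs per NK or T cell. *Ptgs2*, the inducible prostaglandin synthase, had 0.34 (0.19 to 0.50), and the interleukin 1 antagonist *Il1rn* 0.74 (0.54 to 0.95). Of 5 genes of the Fc receptor list, 2 were called higher and none lower, so these shared a direction but differed in size. *Fcgr1* had 2.00 (1.78 to 2.23) and *Fcgr4* 1.82 (1.504 to 2.16), while *Fcgr3* had 0.30 (0.15 to 0.46) and the inhibitory *Fcgr2b* 0.65 (0.41 to 0.90).

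Of the metabolic lists, glycolysis had the most calls. Of 14 glycolysis genes, 10 were called higher and none lower, a median of 1.40. *Gapdh* measured 720.1 CPM (667 to 776) in the ZsG-negative gate and 1906 CPM (1859.8 to 1953) in ZsG-positive monocytes, *Ldha*, the lactate dehydrogenase, at 192 CPM (165 to 222) and 621 CPM (594 to 648), and *Pkm*, pyruvate kinase, at 496 CPM and 1104 CPM. NK and T cells held 17.1 and 23.3 *Gapdh* UMIs per cell, so none of the list passed a limit on free RNA of 20% of the monocyte level. NK and T cells can make such mRNA themselves, and the parts of their own and of free RNA were not tested. Of 20 lysosome genes, 4 were called higher, among them *Ctsc*, a protease that activates granule enzymes, at 1.23 (1.12 to 1.34), while *Psap* and *Npc2* had 0.13 (0.06 to 0.19) and 0.28 (0.19 to 0.38). Lipid genes included *Lpl*, lipoprotein lipase, from 147 CPM (124 to 174) to 1145 CPM (1109 to 1182), *Fabp5*, a fatty acid carrier, at a log2 ratio of 2.36 (2.03 to 2.70), and *Plin2*, which coats lipid droplets, at 1.73 (1.43 to 2.04). *Apoc2* had -1.67 (-1.92 to -1.42). The list had 4 of 13 called higher and 1 lower, with a median of 0.03.

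Genes lower in ZsG-positive monocytes included blood monocyte genes of both kinds. Of 18 classical monocyte genes, 6 were called lower and none higher, with a median of -0.47. They were *Ifitm6*, *Fn1*, *Thbs1* and, named after their values were seen, *Hp*, *F13a1* and *Mgst1*. *Hp*, haptoglobin, measured 926 CPM (866 to 989) in the ZsG-negative gate and 182 CPM (168 to 197) in ZsG-positive monocytes, a log2 ratio of -2.35 (-2.50 to -2.20), and *Fn1*, fibronectin, at 1750.0 CPM (1667 to 1836) and 482 CPM (459 to 506). *F13a1*, a coagulation factor subunit, had -2.11 (-2.26 to -1.96), *Mgst1*, a glutathione transferase, -2.41 (-2.60 to -2.23), and *Thbs1*, thrombospondin, -1.78 (-1.94 to -1.63). *Plac8* and *S100a4* had 0.11 (0.06 to 0.16) and -0.19 (-0.25 to -0.13).

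Of 11 non-classical monocyte genes tested, 6 were called lower and *Cd36* was called higher, and the median was -1.07. *Cx3cr1*, the fractalkine receptor (ENSMUSG00000052336, chromosome 9, 119901616 to 120069879), measured 166 CPM (141 to 194) in the ZsG-negative gate and 11.6 CPM (8.23 to 15.8) in ZsG-positive monocytes, a log2 ratio of -3.84 (-4.39 to -3.33). *Hpgd*, which breaks down prostaglandins, was at 196 CPM (169 to 226) and 9.4995 CPM (6.50 to 13.4), a log2 ratio of -4.37 (-4.96 to -3.82). *Nr4a1*, a factor that non-classical monocytes need, stood at 1085 CPM (1020.3 to 1153) and 518 CPM (494 to 543). NK and T cells held at most 0.0922 *Cx3cr1* UMIs per cell and at most 0.00461 of *Hpgd*.

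The genes furthest below in ZsG-positive monocytes also included *Abcd2*, a peroxisomal transporter of very long fatty acids, from 73.0 CPM (56.9 to 92.3) to 3.27 CPM (1.63 to 5.84), *Sgms2*, a sphingomyelin synthase, from 64.7 CPM to 3.86 CPM, *Ldlrad3*, *Rassf3* and *Add3*, which encodes the cytoskeletal protein gamma adducin. *Add3* was at 327 CPM (291 to 365) and 39.8 CPM (33.3 to 47.1), and at 3000 UMIs it was found in 63.0% and 9.98% of monocytes. *Gzma*, the granzyme of killer cells, led the list at a log2 ratio of -4.79 (-5.71 to -3.98), with 1.02 and 0.0332 UMIs per monocyte beside 22.2 and 7.29 per NK or T cell. All 6 NK and T cell genes tested were called lower in ZsG-positive monocytes, and the libraries held 3418 ZsG-negative and 217 ZsG-positive NK and T cells. In cells of 4000 to 12000 UMIs, 1 of 3 was called lower. Among genes whose NK and T cell level was under 20% of the monocyte level, 214 of 1026 were called lower and 182 higher. *Ccdc88c*, *Pdcd4*, *Ypel3* and *Arhgef18* were also among the lowest and exceeded that limit, and the part of lymphocyte RNA in them was not tested.

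Of 18 transcription factors of monocyte fate, 4 were called lower, *Maf* was called higher and 13 were not called. Over all genes, 8.55% were called lower. The median log2 ratio of the list was -0.12, and it summed to 8046 CPM in ZsG-negative and 6528 CPM in ZsG-positive monocytes. *Cebpb*, which drives the inflammatory programme, was at 2468 CPM and 1544 CPM, *Irf8*, which commits progenitors to monocytes, at 648 CPM and 579.8 CPM, and *Spi1*, or PU.1, at 604 CPM and 664 CPM. Of 17 heat shock and immediate early genes, which can move with tissue digestion, *Hspa1a* and *Hspa1b* were called higher and none lower. *Fos* was at 3823 CPM and 3131 CPM and *Nfkbia* at 3214 CPM and 3049.6 CPM.

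The counts of the other lists are read against 7.65% called higher and 8.55% called lower over all genes. Of 15 genes that restrain T cells, 5 were called higher and *Thbs1* lower, and of these *Mrc1* alone was higher under the limit on free RNA. *Arg1*, arginase, named after its values were seen, had 0 and 104 UMIs, at 30.9 CPM (25.2 to 37.4) in ZsG-positive monocytes, at least 9.86-fold higher. Adhesion genes had 3 of 17 called higher and 2 lower, with a median of -0.59. Innate sensors had 1 of 12 called each way, *Tlr1* higher and *Tlr7* lower. Cell cycle genes had 6 of 13 called higher and 1 lower, but 1 of 6 each way in cells of 4000 to 12000 UMIs and 3 of 10 higher with fewer than 5 C1q UMIs. Among markers of conventional dendritic cells, 2 of 7 were called higher and 1 lower, and among those of plasmacytoid dendritic cells 2 of 3 were called lower. Neutrophil genes had 1 of 2 called lower, the receptor *Csf3r*, and neither the 1 B cell gene nor any of 13 mitochondrially encoded genes was called.

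Single cells showed how the gates overlapped. With each cell thinned to 3000 UMIs, the class II list summed to a median of 1 UMI in ZsG-negative monocytes (25th to 75th percentile 0 to 3), 20 in ZsG-positive monocytes (7 to 53) and 66 in C1q macrophages (38 to 97). NK and T cells had a median of 0 UMIs in the ZsG-negative and 2 in the ZsG-positive library. ZsG-positive monocytes thus ran from cells near the level of free RNA to cells at the level of macrophages. Of ZsG-negative monocytes, 8.33% reached the ZsG-positive median. The classical monocyte list overlapped far more, with medians of 62 and 52 UMIs, and 24 in macrophages. The type I interferon list had medians of 19 and 34, the glycolysis list 8 and 18, and the lysosome list 31.5 and 44. Of ZsG-negative monocytes, 4.63% reached the ZsG-positive median of the lysosome list, fewer than for class II, and 19.4% that of the type I interferon list.

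**Figure D4:**
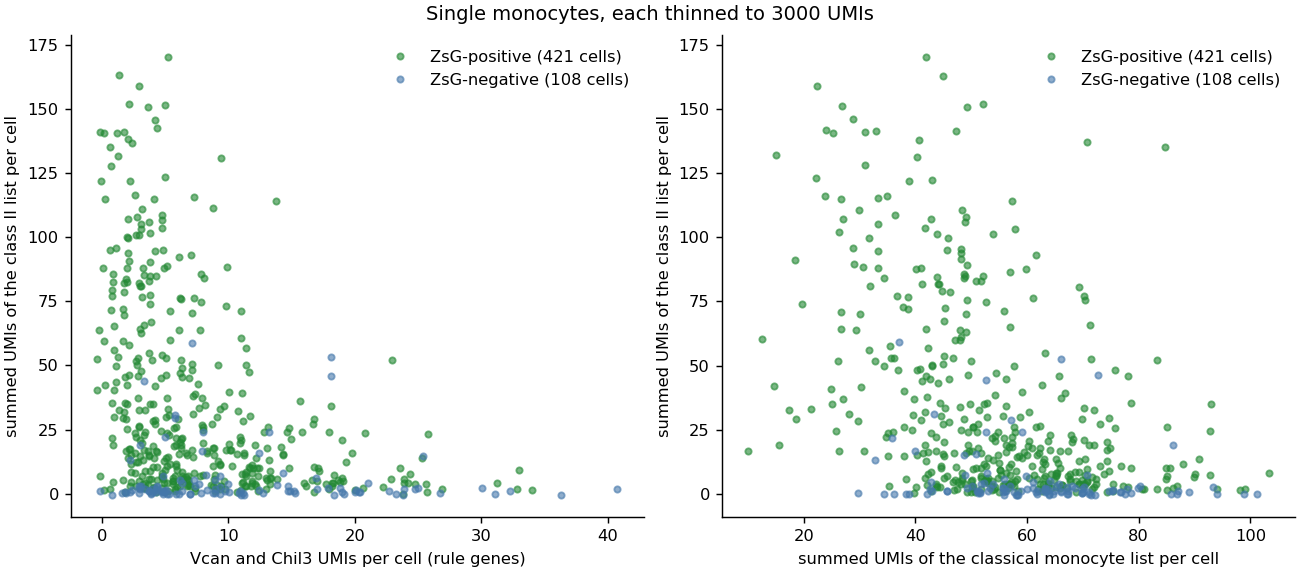
Each point is a monocyte thinned to 3000 UMIs (108 ZsG-negative, 421 ZsG-positive), with a small random offset. The y axis gives the summed UMIs of the class II list, and the x axes give those of *Vcan* and *Chil3* (left; both chose the cells) and of the classical monocyte list (right). ZsG-negative cells lie along the bottom at a median of 1 UMI, and ZsG-positive cells with many class II UMIs mostly lie at the left. In ZsG-positive cells, total UMIs before thinning had a Spearman's rho of -0.46 with *Vcan* and *Chil3* and 0.45 with class II. The part of depth and of the rule in the left panel was not tested.

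Across the 421 ZsG-positive monocytes, class II UMIs went down as classical monocyte UMIs went up (Spearman's rho -0.48) and up with glycolysis UMIs (rho 0.40). These cells share a library, and their total UMIs before thinning went the same way, at rho 0.45 with class II. The part of depth in these relations was not tested. Class II UMIs hardly went with those of *Ly6c2* (rho -0.01) or *Il1b* (rho 0.04). Across the 108 ZsG-negative monocytes the relation of class II to the classical list was weaker, at rho -0.20, and total UMIs gave 0.02.

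Within the ZsG-positive library, where free RNA is shared, the monocytes were set beside the C1q macrophages. These were deeper, with a median of 12859 UMIs per cell. The C1q limit divided the groups, so the ratios describe where the cut runs, and 226 of the macrophages met every other limit of the monocytes. The limits on *Vcan* and *Chil3* and on *Hilpda*, *Egln3*, *Vegfa*, *Nos2* and *Inhba* chose the monocytes only. Of the 1814 macrophages, 1277 also met the latter limit. Comparisons with the ZsG-negative gate and with macrophages share the ZsG-positive monocytes. Of 11306 genes, 269 (2.38%) were called higher and 947 (8.38%) lower in monocytes, with a median of -0.16. Scaling that set the median of genes with at least 100 UMIs to 0 moved all ratios by 0.12 and gave 366 higher and 755 lower, so that 32.6% rather than 22.1% of calls were higher.

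Classical monocyte genes were higher here: 11 of 18 were called higher and none lower, with a median of 1.06. *Hp* was at 182 CPM (168 to 197) in monocytes and 14.0 CPM in macrophages, a log2 ratio of 3.70 (3.52 to 3.89). *Dmkn* had 3.60 (3.32 to 3.87) and *Ifitm6* 3.09 (2.96 to 3.22). *Plac8* had 1.71 (1.68 to 1.74), *Ccr2* 1.01 (0.95 to 1.06) and *Ly6c2*, just under the limit, 0.98 (0.94 to 1.02). Among the largest ratios were also the surface protein *Cd177* at 3.19 (2.86 to 3.52), the collagenase *Mmp8* at 2.55 (2.09 to 2.99) and the protease inhibitor *Slpi* at 2.54 (2.34 to 2.73). Of the neutrophil list, 0 of 4 genes tested were called either way. *Gsr*, glutathione reductase, *Plcb1*, *Arhgef37*, *Nhsl2* and *Mgst1* were also among the highest genes.

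Cytokine and interferon genes leaned to the monocytes. Of 20 inflammatory cytokine genes, 7 were called higher and *Il12b* lower. *Il1b* was at 5774 CPM in monocytes and 2237 CPM in macrophages, a log2 ratio of 1.37 (1.34 to 1.39), *Osm* had 1.55 (1.46 to 1.65), and *Clec4e*, a receptor for mycobacterial glycolipid, 1.19 (1.10 to 1.28). *Il6*, outside the rule for named genes, had 2.03 (1.79 to 2.27). *Cxcl10* had 1.21 (1.18 to 1.24), while *Cxcl9* was at 2026 and 1867 CPM. Of 32 type I interferon genes, 5 were called higher and none lower, with a median of 0.70. *Slfn5* had 1.38 (1.31 to 1.45) and *Isg15* 0.79 (0.75 to 0.83). Both groups had high *Gbp2*, at 1903 CPM and 746 CPM. In cells of 4000 to 12000 UMIs, 2 type I interferon genes were called higher and 1 lower.

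Macrophage genes were lower, with 14 of 20 called lower and none higher in monocytes. *Ms4a7*, a membrane protein of macrophages, was at 49.3 CPM (42.1 to 57.4) in monocytes and 328 CPM in macrophages, a log2 ratio of -2.74 (-2.97 to -2.52), *Cd72* had -2.77 (-3.23 to -2.35), *Ccl8* -2.91 (-3.05 to -2.77) and the adhesion molecule *Cadm1* -3.83 (-5.15 to -2.78). *Arg1*, arginase, was at 30.9 CPM (25.2 to 37.4) and 256 CPM, and *Abca1*, the cholesterol exporter, at 4.45 CPM (2.49 to 7.34) and 36.0 CPM. Lysosome genes had 8 of 21 called lower, such as the protease *Ctsb* at -1.05 (-1.10 to -0.9997), and lipid genes 7 of 13. Melanocyte genes had 4 of 7 called lower, with a median of -1.78. Class II genes were nearer, with 2 of 9 called lower, *H2-DMb2* and *H2-Oa*, named after their values were seen, but 5 of 9 with at least 10 *Vcan* and *Chil3* UMIs, at a median of -1.13. *H2-Ab1* had -0.76 (-0.80 to -0.73), *Cd74* -0.56 (-0.58 to -0.54) and *H2-DMa* 0.15 (0.09 to 0.21). Glycolysis genes had 0 of 14 called either way. Cell cycle genes had 15 of 17 called lower, with a median of -2.04, and 8 of 17 in cells of 4000 to 12000 UMIs. *Pclaf*, which binds the replication clamp, had -3.09 (-3.67 to -2.56), and the replication genes *Lig1*, *Dut*, *Uhrf1* and *Cdca3*, of mitosis, were also among the lowest, as was *Il7r*.

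In the ZsG-negative library, the 108 monocytes were compared with 72 non-classical monocytes. No limit on *Vcan*, *Chil3*, *Hilpda*, *Egln3*, *Vegfa*, *Nos2* or *Inhba* was put on the latter. Of the 72, 29 met every limit of the monocytes but that on *Ace*, *Adgre4* and *Treml4*, so the groups are not fully distinct. Of 6199 genes, 195 (3.15%) were called higher and 296 (4.77%) lower in the *Vcan* and *Chil3* cells, a median of -0.02. Classical monocyte genes had 10 of 18 called higher and none lower. *Fn1* was at 1750.0 CPM (1667 to 1836) and 306 CPM, a log2 ratio of 2.52 (2.29 to 2.75), *F13a1* had 2.58 (2.24 to 2.94), *Hp* 1.79 (1.54 to 2.05), *Ccr2* 1.44 (1.25 to 1.63) and *Ly6c2* 1.09 (0.91 to 1.26). The inflammatory cytokine list had 4 of 17 called higher and 2 lower, and its summed level did not differ beyond counting error, at 9031 and 9020.2 CPM. Its member *Il6* and other inflammatory genes were among the highest. *Il1a* had 55 and 2 UMIs, *Il6* a log2 ratio of 2.12 (1.59 to 2.69), *Tnfaip6* 3.17 (1.74 to 5.09) and *Ccr1*, a receptor for inflammatory chemokines, 3.22 (2.52 to 4.02). *Mmp8*, *Slpi*, *Anxa3*, *Lpl* and *Thbs1* completed the highest genes.

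Non-classical monocyte genes had 9 of 12 called lower. *Eno3*, an enolase, had 1 and 110 UMIs, *Spn*, or CD43, a log2 ratio of -2.58 (-3.14 to -2.05), *Ear2* -3.30 (-4.01 to -2.66) and *Itgal*, a chain of LFA-1, -1.89 (-2.18 to -1.61). *Cx3cr1*, at 166 CPM (141 to 194) and 265 CPM, and *Hpgd*, at 196 CPM and 246 CPM, were not called, with log2 ratios of -0.68 (-1.01 to -0.35) and -0.33 (-0.65 to 0.00). The rule's own non-classical genes, *Ace*, *Adgre4* and *Treml4*, were at 0 in 66.7% of ZsG-negative and 88.6% of ZsG-positive monocytes, and their limit alone removed 29 and 14 cells. Their part in the levels of *Cx3cr1* and *Hpgd* was not tested. Class II genes had 6 of 7 called lower, with *H2-Eb1* at -3.06 (-3.44 to -2.69). *Cd9*, *Cd300e*, *Fabp4*, *Cd36*, *Itgax*, *Slc12a2*, *Pdgfb*, *Cyth3* and *Bcl2* were among the lowest, each with at most 5 UMIs in the monocytes.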

How the data were processed

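CD45+ TILs of each gate were sequenced as 1 10x 3′ library. Per the labels and the study's methods, the authors aligned reads to mm10 with Cell Ranger 6.1.2 (the header of the deposited CD45+ table names version 7.0.0), combined the libraries and deposited UMI counts per gene and cell, from which all values here were computed. The sources used here do not say if depths were evened in that step. Gene positions are those of the GENCODE annotation of GRCm38 (mm10), and promoters those of RefSeq for GRCm38.p6.

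Counts were summed over the monocytes of a library and scaled to CPM of their total, which came to 958259 UMIs for ZsG-negative and 3368589 for ZsG-positive monocytes. Levels have exact Poisson intervals, shares exact Clopper-Pearson intervals, and ratios exact conditional intervals, all at 95%. UMIs within a library come from pooled cells of an unstated number of mice. The intervals on summed UMIs thus do not cover the spread between cells, and none covers the spread between animals. No replicate exists, and so no test was made. For ratios, 0.5 was added to both sums only where 1 was 0. NK and T cells were those with at least 3 UMIs of *Ncr1*, *Klrb1c*, *Cd3d*, *Cd3e* and *Cd3g* together and none of *Csf1r*, *Cd14* and *Ms4a7*, so free RNA of the last 3 genes cannot be read from them. For duplicate symbols the identifier with more UMIs was used. No doublet caller was run, and the CD3 limit is the only step against mixes with T cells. *Mx1*, *Mx2*, *Cxcl11* and *Clec7a* were not analysed here, and some genes that met the rule for named genes are not reported.

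The cells and the gene lists were chosen with earlier results of these data known. Named genes were, per comparison, the 12 called genes on each side whose nearer interval bound lay farthest from 0. They had to be detected in 10% or more of either group's cells, and rule, mitochondrial, ribosomal protein and gene-model names were left out. The markers and up to 6 members of each list with the most UMIs were added. Members named beside the count of their list that fall outside this rule were chosen after their values were seen. Alternatives were other limits on the cells, depth windows, scalings, a UMI minimum of 100 and a limit on free RNA. The limit on free RNA was applied to each gene in the library where it was higher, so called genes passed it more readily. No column of other samples was left unused. The calculation was tested on simulated Poisson sums, which hold no spread between cells, so the effect of that spread was not tested. Scripts ran in Python 3.11.15 with scipy 1.17.1 for the intervals, numpy 2.4.6 and pandas 2.3.3 for the tables, and matplotlib 3.10.9 for the figures.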

Additional observations from a re-analysis of the deposited data

Results flagged for a closer look

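A separate T cell sort from the same kind of tumors, which no comparison above uses, also held cells that met every limit of the monocyte rule. They were 56 of 2694 kept cells, or 2.08% (exact binomial interval 1.57 to 2.69), with a median of 9535 UMIs. A further 134 cells, 4.97% (4.18 to 5.86), met the limits of the C1q macrophages. No control sample sets a background for this count. The libraries of that sort were pooled, since their order in the deposited table could not be matched to the labels.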

How the results depend on the processing

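With 1 library per gate, leaving out a replicate was not possible. No paired analysis was possible because each gate has 1 library. Requiring at least 100 UMIs left 344 genes higher and 265 lower in ZsG-positive monocytes, and 55 higher and 73 lower against non-classical monocytes, since fewer genes were tested. The limit on free RNA left 182 higher and 214 lower of 1026 tested. The mean of each cell's CPM gave 1678 genes lower than in C1q macrophages and 339 higher than in non-classical monocytes, without an interval to pass. The T cell sort gave 596 genes higher in 56 monocytes than in 134 macrophages, of which 129 were also called higher in the main comparison. It gave 739 genes lower, near the main count, but 261 of them were shared with it. The cause was not tested. For the share of cells, a mitochondrial limit of 5% moved the log2 ratio to 1.83 and the ZsG-negative share to 3.11%, at least 10 *Vcan* and *Chil3* UMIs moved the ratio to 1.79 and the ZsG-positive share to 6.91%, and thinning to 3000 UMIs, which left out 357 ZsG-negative and 99 ZsG-positive cells, moved the ZsG-positive share to 8.08%. All other alternatives run left these counts over all genes within 1.5 times, while counts within short lists moved further, as given beside those lists. The sign was compared only for genes called in the main comparison. Of 494 gene values, alternatives gave 3967 values within the main interval, 791 outside it, and 3 with the other sign. These were *Klrd1* between the gates at 0.022 in cells of 4000 to 12000 UMIs, *Top2a* at -0.086 without the 5% of cells with the most UMIs, and *Cx3cr1* against macrophages at 0.71 in the T cell sort. Depth limits low genes most, since the ZsG-negative monocytes were 108 cells.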
